A study of Homo sapiens with 2 samples.

Results

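The genes of the proteasome, the protease complex that degrades ubiquitin-tagged proteins, were followed between 2 cultures labelled SK-MEL-2, an established human melanoma line. Members were taken by name alone: protein-coding rows of the deposited table called PSMA, PSMB, PSMC, PSMD, PSME, PSMF or PSMG plus digits, with the interferon-inducible PSMB8 and PSMB9 and all pseudogenes left out. This gave 46 of 60527 rows. By role they were 8 alpha and 9 beta subunits of the 20S core, 6 ATPases and 11 non-ATPase subunits of the 19S cap, 4 activators, 1 inhibitor and 7 assembly chaperones, the last including PSMD5, PSMD9 and PSMD10. One culture had received JNJ-7706621 at 1.75 µM and the other the solvent DMSO, both for 48 h. The compound blocks cyclin-dependent kinases and Aurora kinases, which drive cell division. For each group 1 library is analysed here, so no difference below has a replicate check and none was tested.

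Values are FPKM, fragments per kilobase of exon scaled to the library total. The exon length was that of all annotated exons of a gene, or one fitted from it. It was 1168 bases for PSMB3 and 10418 for PSMG4. Which exons were in use was not examined, so levels of different genes can be compared only roughly. The library totals behind the values were 22817719 reads with JNJ-7706621 and 23377161 with DMSO. Parentheses after a ratio hold its 95% interval (exact, by Clopper-Pearson), which covers counting error only. Ratios and differences are JNJ-7706621 over or minus DMSO. In RNA from whole cultures, fewer cells of a kind and less RNA per cell cannot be told apart. The label of a melanoma line was not borne out by the markers. SOX10, the melanocyte lineage factor, had 0 reads with JNJ-7706621 and 1 with DMSO, and TYR, the enzyme of melanin synthesis, was listed at 0 in both. PMEL and MITF were present, at 3.71 and 2.27 FPKM with JNJ-7706621 and 2.00 and 2.65 FPKM with DMSO. The 7 melanocyte markers added up to 6.25 FPKM with JNJ-7706621 and 4.92 FPKM with DMSO, against 1979 and 1962 FPKM for 5 epithelial markers, and the libraries are therefore named by their labels only.

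The 26S proteasome is a barrel, the 20S core, closed at one or both ends by the 19S cap. The outer rings of the barrel are made of alpha subunits that gate the channel, and the inner rings of beta subunits, of which PSMB5, PSMB6 and PSMB7 carry the active sites. ATPases at the base of the cap unfold substrates and the lid removes ubiquitin. Activators encoded by PSME genes can bind the core in place of the cap. When proteasome activity is short, the transcription factor NFE2L1 is known to raise most subunit genes together through antioxidant response elements in their promoters.

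Because of that shared control, the promoters of the members were searched for the core of this element, spelled TGACNNNGC, on both strands. RefSeq promoters of GRCh38.p14, 250 bases before to 50 after the first listed start, were found for 40 of the 46 members. The core was present in 12 of these 40, or 30.0%, against 14.3% of 15842 protein-coding promoters of the same length. The matches that lay before the start, 11 in 10 members, are shown with 10 bases on either side, with the core in capitals (in reverse complement where the match was on the other strand), so that they can be read against the values given further on.

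PSME2: ccctggactgTGACCCAGCcagcaccgcc
PSME1: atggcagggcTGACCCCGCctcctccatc
PSME4: cccggcggctGCAGCGTCAccagcagagc
PSMG1: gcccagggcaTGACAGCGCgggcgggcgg
PSMG2: cagtttcccgTGACCCCGCggccgctctg
PSMD5: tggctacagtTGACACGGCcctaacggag
PSMD9, farther match: cgctactcctGCCGGGTCAccacaggcgc
PSMD9, nearer match: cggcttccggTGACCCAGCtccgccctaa
PSMD12: agacaaaaccTGACGCTGCaggctggagt
PSMD3: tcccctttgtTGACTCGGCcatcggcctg
PSMB3: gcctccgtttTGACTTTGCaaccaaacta

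The PSME2 window lies at chr14:24146767-24146795 on the minus strand and that of PSME1 at chr14:24136098-24136126 on the plus strand. The window of PSMG1 lies at chr21:39183616-39183644 on the minus strand and that of PSMB3 at chr17:38752627-38752655 on the plus strand. A match is a description of letters, not a bound site. Of the other motifs searched on both strands, CCAAT, the box bound by NF-Y, was in 45.0% of the member promoters and 36.4% of all. The GC box GGGCGG was in 65.0% and 58.5%, and the ETS site CCGGAAG in 32.5% and 14.2%.

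Across the complex the levels of the 2 cultures were close. Of the 46 members, 42 had a mean of at least 1 FPKM and were compared as the difference of log2(FPKM + 1), which understates the difference of low genes. Sizes were read against a log2 difference of 0.32 either way, a modest step chosen for abundant genes, and against 2-fold. Higher by at least 0.32 with JNJ-7706621 were 6 of the 42, or 14.3%, where 18.9% of 10167 protein-coding genes and 20.1% of all 13241 genes were. Lower by at least 0.32 was 1 of the 42, or 2.38%, where 17.6% of protein-coding genes and 19.4% of all genes were. None was 2-fold higher, against 1.79% of protein-coding and 2.39% of all genes, and none 2-fold lower, against 0.62% and 1.36%. Between the limits of 0.32 lay 35 members, or 83.3%, and 63.5% of protein-coding genes. The standard deviation of the differences was 0.20 over the members and 0.41 over protein-coding genes. Genes between 17.9 and 54.9 FPKM, the middle range of the members' own levels, were as spread out as the rest, with 22.2% of 1522 higher and 14.3% lower by at least 0.32. The members' median log2 difference was 0.07, and 29 of 42 stood above 0, or 69.0%, against 50.1% of protein-coding genes.

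**Figure D1:**
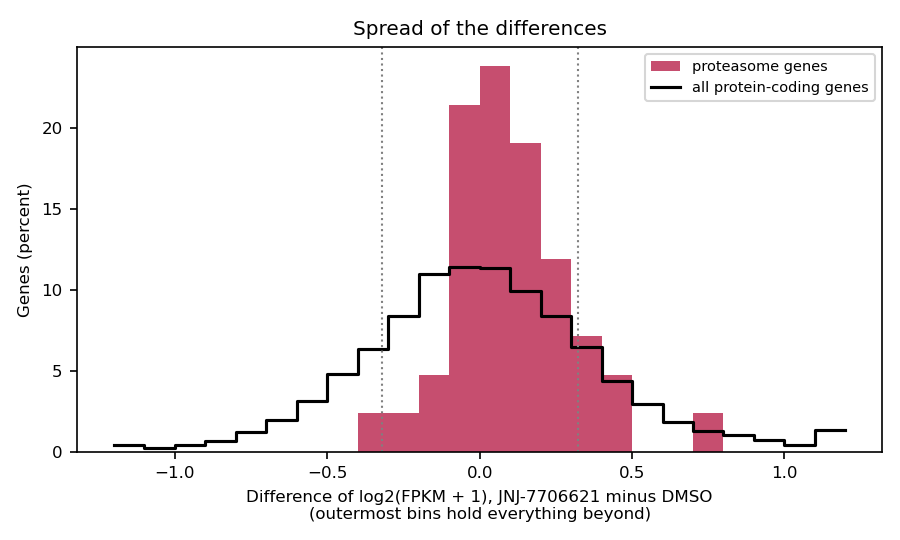
Share of genes in percent (vertical axis) by the difference of log2(FPKM + 1), JNJ-7706621 minus DMSO, in steps of 0.1 (horizontal axis). Red bars are the 42 proteasome genes with a mean of at least 1 FPKM, the black line is all 10167 protein-coding genes, and dotted lines mark 0.32 either way; 35 of the red genes lie between them.

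The activators had the highest median of the roles, with 3 of 4 higher by at least 0.32 with JNJ-7706621 and a median log2 difference of 0.36. By that much 18.9% of protein-coding genes and 20.1% of all genes were higher. Of the 3 activators, PSME3 sat at the limit. PSME1 and PSME2 encode the alternating subunits of the 11S ring, an interferon-inducible cap that favours the release of antigenic peptides. PSME2 had 38.8 FPKM with JNJ-7706621 and 22.4 FPKM with DMSO, a ratio of 1.73 (1.63 to 1.83). This was the largest ratio among the members. PSME1 had 76.1 FPKM with JNJ-7706621 and 58.0 FPKM with DMSO, a ratio of 1.31 (1.24 to 1.38). The level of PSME1 was thus 1.96 times that of its partner in the JNJ-7706621 library and 2.59 times in the DMSO library. The exon lengths behind these levels were 1776 bases for PSME1 and 3582 for PSME2. The genes are neighbours on chromosome 14, at positions 24136158 to 24138967 on the plus strand and 24143362 to 24147570 on the minus strand, and both promoters are among those shown with the response element core.

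PSME3, which encodes the nuclear activator of ubiquitin-independent degradation, had 53.1 FPKM with JNJ-7706621 and 42.1 FPKM with DMSO, a ratio of 1.26 (1.22 to 1.31). Its log2 difference of 0.33 sat at the limit and came to 0.316, 0.306 and 0.269, under the exact limit of 0.322, after rescaling to TPM and after trends with exon length and with level were taken off. The gene lies at 42824385 to 42843758 on chromosome 17. PSME4, the activator PA200 known for work on acetylated histones, was the exception. It had 6.02 FPKM with JNJ-7706621 and 6.00 FPKM with DMSO, a ratio of 1.00 (0.933 to 1.08). PSMF1, whose product PI31 inhibits the core in the test tube, had 18.7 FPKM with JNJ-7706621 and 16.5 FPKM with DMSO, a ratio of 1.13 (1.09 to 1.18). Together the activators took 0.0392% of the summed FPKM of the JNJ-7706621 library and 0.0293% of that of the DMSO library.

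**Figure D2:**
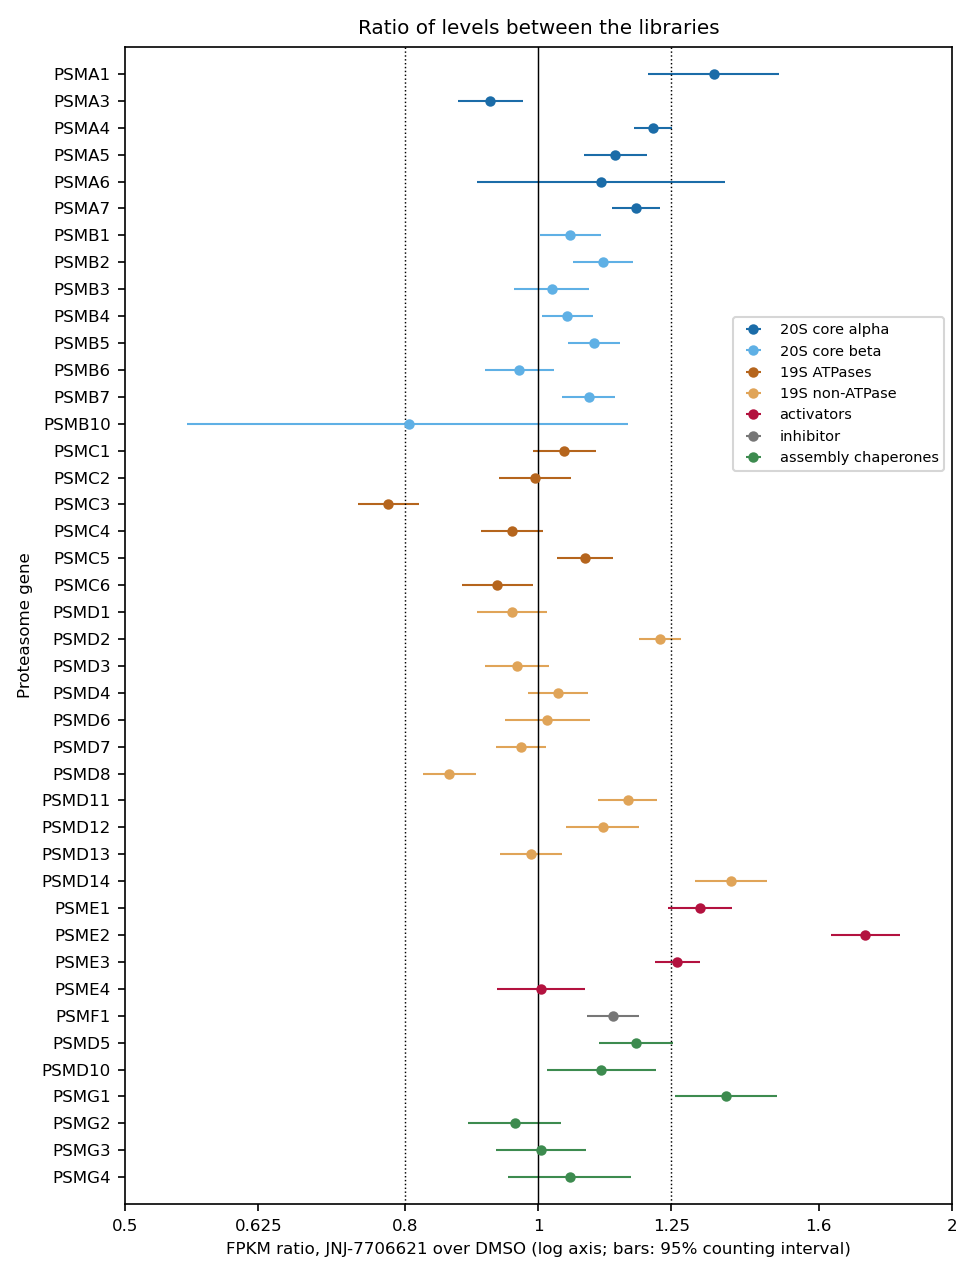
FPKM ratio of JNJ-7706621 over DMSO on a log axis (horizontal) for each of the 42 measured proteasome genes (vertical), coloured by role, with 95% counting intervals as bars and dotted lines at a log2 ratio of 0.32 either way. PSME2 lies farthest right at 1.73 and PSMC3 farthest left at 0.777, and most other points crowd near 1.

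The measured alpha genes leaned higher with JNJ-7706621, with a median log2 difference of 0.21 over 6 genes. Of these 5 stood above 0, or 83.3%, against 69.0% of all measured members and 50.1% of protein-coding genes. Only PSMA1 was higher by 0.32, or 16.7%, against 18.9% of protein-coding genes. PSMA2, under the mean of 1 FPKM and so not among the 6, went the other way. Its ratio was 0.632 (0.426 to 0.928) on 45 reads with JNJ-7706621 and 73 with DMSO. PSMA7 had 128 FPKM with JNJ-7706621, the highest level of any member there, and 109 FPKM with DMSO, just under PSMB5, a ratio of 1.18 (1.13 to 1.23). PSMA4 had 49.998 FPKM with JNJ-7706621 and 41.3 FPKM with DMSO, a ratio of 1.21 (1.17 to 1.252). PSMA5 had a ratio of 1.14 (1.08 to 1.199). PSMA3, a gate subunit with a long acidic tail, was the one measured alpha gene below 1, at 35.0 FPKM with JNJ-7706621 and 37.9 FPKM with DMSO. PSMA1, on chromosome 11, had 9.997 FPKM with JNJ-7706621 and 7.45 FPKM with DMSO, a ratio of 1.34 (1.202 to 1.498), and its log2 difference of 0.38 came to 0.31 after the trend with exon length was taken off. PSMA6 had 1.31 and 1.18 FPKM in the same order, a ratio of 1.11 (0.902 to 1.37) that spans 1. PSMA8, the testis form of PSMA7, was listed at 0 in both libraries, which at a floor of 3 reads allows up to 0.0694 FPKM with JNJ-7706621 and 0.0678 FPKM with DMSO.

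The beta rings barely differed. None of the 8 measured genes passed 0.32, and the median log2 difference was 0.07, with 6 genes above 0. The 3 catalytic genes were all abundant. PSMB5, the chymotrypsin-like site and the target of bortezomib, had 121 FPKM with JNJ-7706621 and 110 FPKM with DMSO, a ratio of 1.10 (1.05 to 1.15). PSMB7, the trypsin-like site, had 99.2 FPKM with JNJ-7706621 and 91.2 FPKM with DMSO, a ratio of 1.09 (1.04 to 1.14). PSMB6, the caspase-like site, had 69.6 FPKM with JNJ-7706621 and 71.9 FPKM with DMSO, a ratio of 0.968 (0.914 to 1.03). The 4 structural genes PSMB1, PSMB2, PSMB3 and PSMB4 had ratios of 1.06, 1.11, 1.02 and 1.05. PSMB11, the thymus form, had 0 reads with JNJ-7706621 and 1 read with DMSO.

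PSMB10 is the third inducible catalytic gene, which replaces PSMB7 in the immunoproteasome. It had 1.48 FPKM with JNJ-7706621 and 1.84 FPKM with DMSO, a ratio of 0.805 (0.555 to 1.16) on 55 and 70 reads. Its companions PSMB8 and PSMB9, outside the members, were higher with JNJ-7706621, at 8.35 and 1.08 FPKM with JNJ-7706621 against 3.43 and 0.397 FPKM with DMSO. PSMB5 stood 14.5 times as high as PSMB8, which replaces it, with JNJ-7706621 and 32.1 times as high with DMSO. PSMB7 stood 66.9 times as high as PSMB10 with JNJ-7706621 and 49.5 times with DMSO.

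The ATPases of the cap also barely differed as a group, with a median log2 difference of -0.04. Of the 6 genes 4 were below 0, where 50.1% of protein-coding genes were above 0. PSMC3 was the only member lower by at least 0.32. It had 49.7 FPKM with JNJ-7706621 and 64.0 FPKM with DMSO, a ratio of 0.777 (0.738 to 0.818), and lies at 47418769 to 47426473 on chromosome 11. The other ATPases were closer to 1: PSMC4 had a ratio of 0.956 (0.907 to 1.01), PSMC6 of 0.933 (0.879 to 0.991), PSMC2 of 0.994 (0.935 to 1.06), PSMC1 of 1.04 (0.990 to 1.10) and PSMC5 of 1.08 (1.03 to 1.13). The ATPases sit side by side in 1 ring. PSMC3 stood below PSMC4 with JNJ-7706621 (52.8 FPKM for PSMC4) and above it with DMSO (55.2 FPKM).

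Among the 11 non-ATPase subunits of the cap the median log2 difference was 0.02, with 6 above 0 and 5 below. PSMD14, the lid enzyme that cuts ubiquitin from substrates, was the one past 0.32. It had 15.2 FPKM with JNJ-7706621 and 10.9999 FPKM with DMSO, a ratio of 1.38 (1.30 to 1.47), and lies at 161308038 to 161411717 on chromosome 2. PSMD2, the large scaffold of the base, had 54.7 FPKM with JNJ-7706621 and 44.6 FPKM with DMSO, a ratio of 1.23 (1.18 to 1.27). PSMD11, a lid subunit, had a ratio of 1.16 (1.11 to 1.22). PSMD8 differed most the other way, at 51.1 FPKM with JNJ-7706621 and 59.4 FPKM with DMSO, a ratio of 0.861 (0.824 to 0.900). The ubiquitin receptor PSMD4 had 45.0 FPKM with JNJ-7706621 and 43.6 FPKM with DMSO. The remaining lid and base genes PSMD1, PSMD3, PSMD6, PSMD7, PSMD12 and PSMD13 had ratios between 0.957 and 1.11.

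The promoters of PSMD14 and PSMC3, which differed most in each direction among the 17 PSMC and PSMD genes of the cap, both hold the NF-Y box. So did 45% of the member promoters, and both of these also hold the GC box. The NF-Y box is shown here in capitals with 10 bases on either side. In PSMD14 a match on the other strand overlaps it. The windows lie at chr2:161308367-161308391 on the plus strand and chr11:47426539-47426563 on the minus strand of GRCh38.p14.

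PSMD14: tccgtcgtctCCAATtggccgtcgg
PSMC3: cgcgtgtcggCCAATagcggcccca

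Medians of members with and without each motif are given as a description, and whether a motif goes with the difference was not tested. The widest gap was that of the ETS site. The 16 measured members with a CCAAT box had a median log2 difference of 0.07 and the 20 without had 0.08. The 11 with the response element core had 0.03 (range -0.06 to 0.76) and the 25 without had 0.08 (range -0.36 to 0.43). PSME1, PSME2 and PSMG1, 3 of the 6 higher members, were among the 11, where 30.0% of the member promoters hold the core. The 23 with a GC box had 0.08 and the 13 without had 0.07. Of the 6 higher members 5 were among these 23, where 65.0% of the member promoters hold the box. The 11 with the ETS site had 0.01 and the 25 without had 0.14.

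Of the assembly chaperones, PSMG1 was the one past 0.32. PSMG1 and PSMG2 form a pair that holds the growing alpha ring together. PSMG1 had 25.4 FPKM with JNJ-7706621 and 18.5 FPKM with DMSO, a ratio of 1.37 (1.26 to 1.49), whereas PSMG2 had 19.6 FPKM with JNJ-7706621 and 20.4 FPKM with DMSO, a ratio of 0.961 (0.888 to 1.04). PSMG1 stood above PSMG2 with JNJ-7706621 and below it with DMSO. The second pair, PSMG3 and PSMG4, had ratios of 1.00 (0.932 to 1.08) and 1.05 (0.951 to 1.17). Of the chaperones of the cap base, PSMD5 had 21.6 FPKM with JNJ-7706621 and 18.3 FPKM with DMSO, a ratio of 1.18 (1.11 to 1.253), and PSMD10, also known as gankyrin, had a ratio of 1.11 (1.01 to 1.22). PSMD9 had 0.859 FPKM with JNJ-7706621 and 1.05 FPKM with DMSO and lay under the mean of 1 FPKM.

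**Figure D3:**
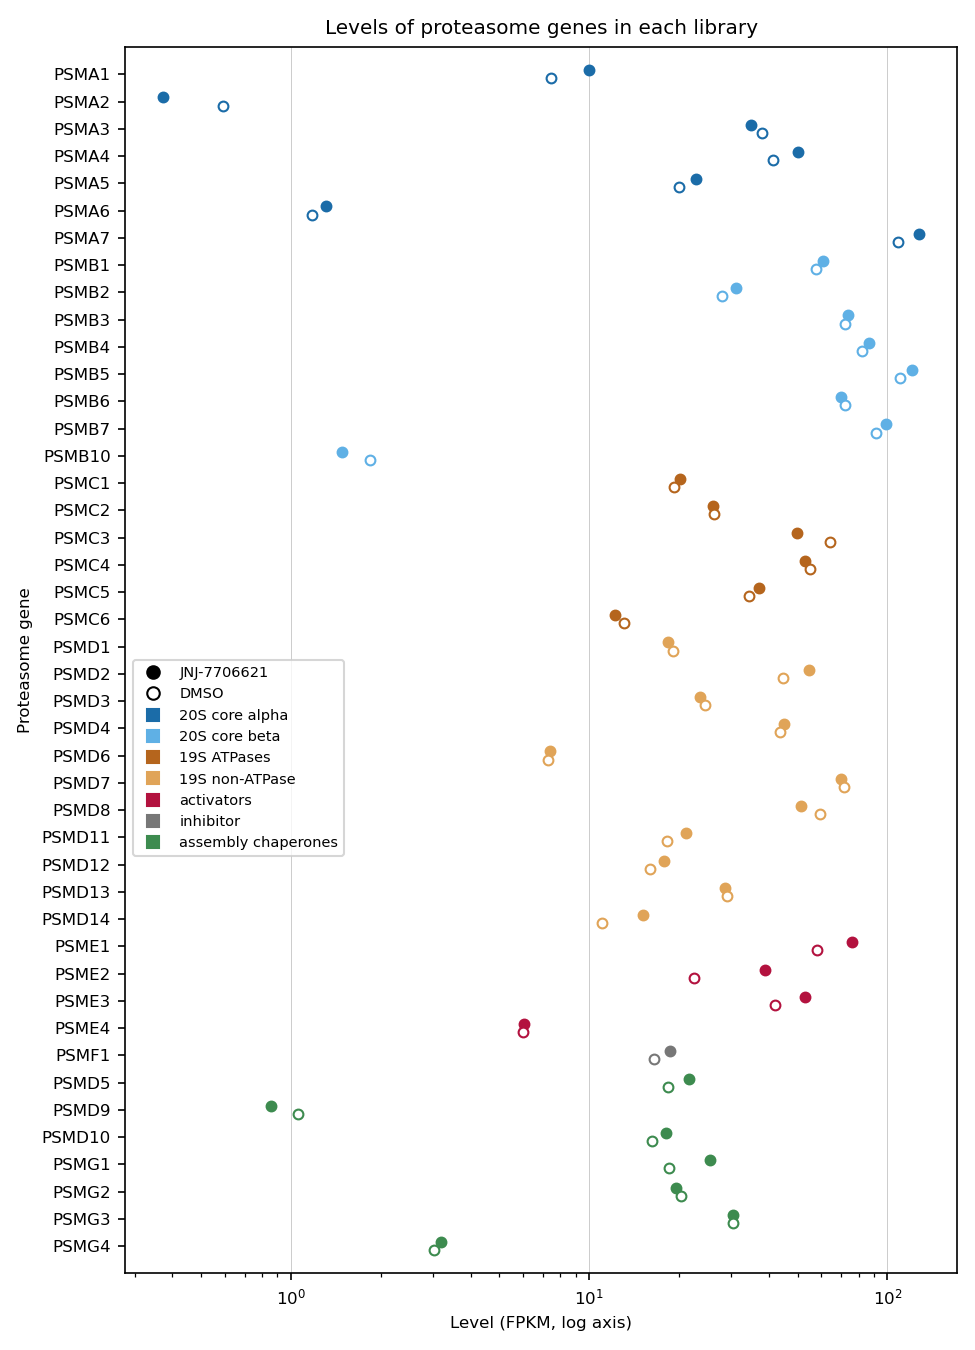
Level of each proteasome gene in FPKM on a log axis (horizontal) in the JNJ-7706621 library (filled) and the DMSO library (open), with genes in rows coloured by role; PSMA8 and PSMB11, at 0 in at least 1 library, are not drawn. Filled and open points sit close together, while levels between genes differ far more, and PSMA2, PSMD9, PSMA6 and PSMB10 lie near 1 FPKM.

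Levels between members differed far more than levels between cultures. The core holds its standard subunits in equal numbers, yet the measured core genes ran over a 97.8-fold range with JNJ-7706621 and a 93.4-fold range with DMSO. The order of levels was nearly the same in both libraries, with Spearman's rho of 0.98 and Pearson's r of 0.99 on the log2 scale across 42 genes, which are not independent replicates. In FPKM, core genes were higher than cap genes, with median levels of 55.3 and 26.0 FPKM with JNJ-7706621 and 49.4 and 26.2 FPKM with DMSO. Summed over members, the core took 0.178% of all FPKM with JNJ-7706621 and 0.167% with DMSO, and the cap 0.124% with JNJ-7706621 and 0.127% with DMSO. By share of reads, which is not per length, the cap stood above the core. It took 0.225% with JNJ-7706621 and 0.219% with DMSO, and the core 0.187% and 0.170%.

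Among the 15 core genes with at least 1 read in each library, the 4 lowest share exons with a readthrough gene, a pattern noticed after the values were seen. The tissue-restricted PSMA8 and PSMB11, at 0 or 1 read, have no such neighbour. A readthrough gene is an annotated one whose transcripts join the exons of neighbouring genes on the same strand. In GENCODE release 29, such genes cover at least 50% of the coding bases of 5 members. These are PSMA2 with 97.1%, PSMA1 with 88.6%, PSMA6 with 70.4%, PSMD9 with 58.7% and PSMB10 with 58.3%. The 5 members had 0.373 to 9.997 FPKM with JNJ-7706621 and 0.590 to 7.45 FPKM with DMSO. The other 39 members above 0 in both libraries had medians of 31.0 and 28.98 FPKM in the same order. Their levels ran from 3.19 to 128 FPKM with JNJ-7706621 and from 3.03 to 110 FPKM with DMSO, so the groups overlapped. PSMA2 and PSMA6 are standard subunits of every core, but PSMA2 had 0.373 FPKM with JNJ-7706621 and 0.590 FPKM with DMSO. The readthrough genes themselves had at most 24 reads in either library. How the authors assigned reads on shared exons is not given in the sources used here, and its part in these low levels was not tested. Without these members, and without PSMA8 and PSMB11, the other 11 core genes spanned 22.8 to 128 FPKM with JNJ-7706621 and 20.1 to 110 FPKM with DMSO, a 5.60-fold and a 5.48-fold range. Since the 4 core genes left out are the lowest ones, the range had to narrow, and no conclusion is drawn from it. The count of higher members was then 5 of 39, or 12.8%, against 18.9% of protein-coding genes, PSMA1 no longer among them.

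**Figure D4:**
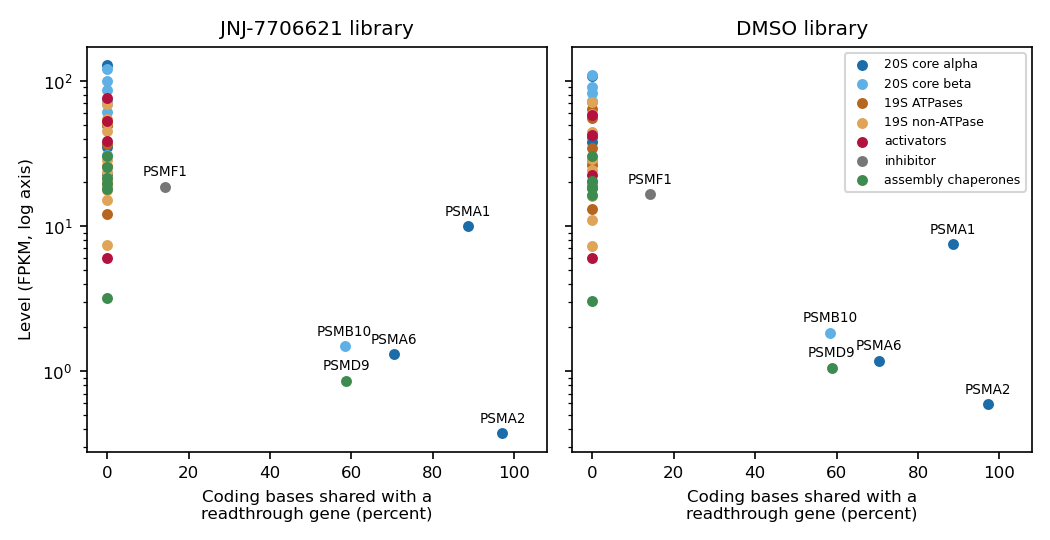
Level in FPKM on a log axis (vertical) against the percentage of coding bases that an annotated readthrough gene shares (horizontal), for 44 proteasome genes in the JNJ-7706621 library (left) and the DMSO library (right), coloured by role. The 5 genes with at least 50% shared lie at 9.997 FPKM or lower in both libraries, as do PSMG4, PSME4 and PSMD6, which share none.

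Other annotated overlaps touch single members. Exons of NRDE2 on the opposite strand cover 75.8% of the exon length of PSMC1, those of AC009120.2 cover 30.7% of PSMD7 and those of FTSJ3 cover 19.5% of PSMC5. Whether counting used strand is not given in the sources used here, so reads of these pairs may not be separable. Of the pseudogenes, 17 had reads in at least 1 library, with a sum of 10.7 FPKM for JNJ-7706621 and 8.17 FPKM for DMSO. The highest was PSMC1P1, at 4.52 FPKM with JNJ-7706621 and 4.28 FPKM with DMSO. PSMA6P1 had 2.01 FPKM with JNJ-7706621 and 2.19 FPKM with DMSO, more than PSMA6 itself. In reads PSMA6P1 had fewer, 34 with JNJ-7706621 and 38 with DMSO, against 194 and 179 for PSMA6. The antisense gene PSMA3-AS1 had 2.73 FPKM with JNJ-7706621 and 4.34 FPKM with DMSO. The genes in this paragraph that are not members were named after their values were seen.

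The pathway around the proteasome was read from a list of 35 other genes, all of them measured. Of these, 3 were higher by at least 0.32 with JNJ-7706621, or 8.57%, and 7 were lower, or 20%, with a median log2 difference of 0.04; 18.9% and 17.6% of protein-coding genes were. All 3 higher genes were among the 12 accessory and assembly partners of the complex, or 25% of them, against 18.9% of protein-coding genes. Of the same 12 genes 2 were lower, or 16.7%, against 17.6%. POMP, the maturation factor of the core, had 62.8 FPKM with JNJ-7706621 and 43.3 FPKM with DMSO, a ratio of 1.45 (1.36 to 1.55). UCHL5, a deubiquitinase of the cap, had 9.12 FPKM with JNJ-7706621 and 7.05 FPKM with DMSO, and PAAF1, a chaperone of cap ATPases, 3.03 and 2.17 FPKM. UCHL5 sat at the limit, with a log2 difference of 0.33 that came to 0.319, under the limit, with the level trend off.

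ADRM1, the ubiquitin receptor that anchors UCHL5 to the cap, went the other way. It had 34.5 FPKM with JNJ-7706621 and 47.3 FPKM with DMSO, a ratio of 0.730 (0.685 to 0.777). ECPAS, an adaptor that binds the 26S complex, had a ratio of 0.750 (0.715 to 0.787). The second cap deubiquitinase USP14 had a ratio of 1.16 (1.09 to 1.23), and SEM1, the smallest cap subunit, of 1.03 (0.953 to 1.12). Thus the receptor ADRM1 and its bound enzyme UCHL5 differed in opposite directions.

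The transcription factor NFE2L1 had 57.4 FPKM with JNJ-7706621 and 52.6 FPKM with DMSO, a ratio of 1.09 (1.06 to 1.13). Its relative NFE2L2, the factor of the oxidative stress response, had 8.76 FPKM with JNJ-7706621 and 11.9 FPKM with DMSO, a ratio of 0.737 (0.682 to 0.796). NFE2L3 had 2.32 FPKM with JNJ-7706621 and 1.88 FPKM with DMSO. NFYA, a subunit of the CCAAT-binding factor, had a ratio of 0.699 (0.622 to 0.785), and NGLY1, which deglycosylates NFE2L1 and was named after its value was seen, of 0.741 (0.667 to 0.824). Both activity and processing of these factors are set after transcription, and neither was measured. UBQLN2, a shuttle that brings ubiquitinated proteins to the proteasome, had the lowest ratio of the list, at 2.62 FPKM with JNJ-7706621 and 5.14 FPKM with DMSO, a ratio of 0.510 (0.437 to 0.594). UBA6, an activating enzyme of ubiquitin, had a ratio of 0.698 (0.622 to 0.781), and its log2 difference of -0.36 came to -0.27 with the length trend off. For scale, the target kinases CDK1 and AURKA had FPKM ratios of 1.95 and 2.10.

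**Figure D5:**
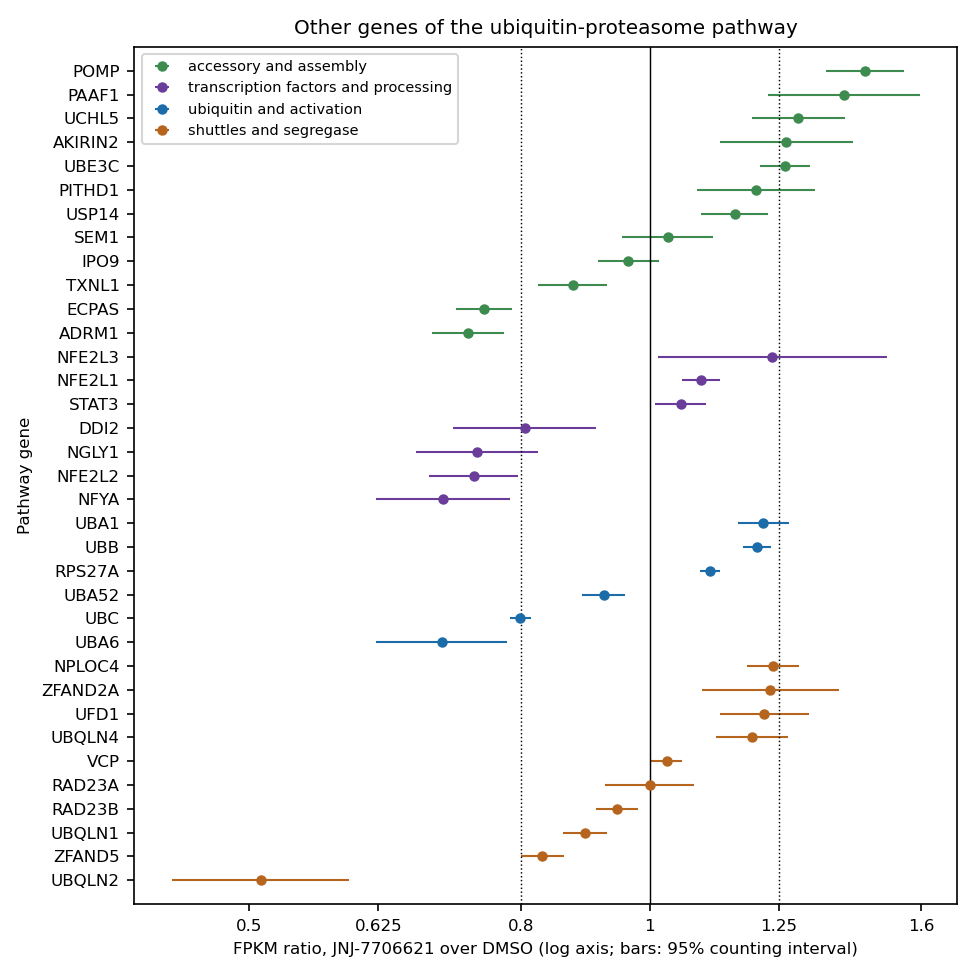
FPKM ratio of JNJ-7706621 over DMSO on a log axis (horizontal) for the 35 pathway genes (vertical), in 4 coloured groups, with 95% counting intervals as bars and dotted lines at a log2 ratio of 0.32 either way. POMP lies farthest right at 1.45 and UBQLN2 farthest left at 0.510.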

How the data were processed

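The 2 libraries of total RNA, 1 of a JNJ-7706621 culture and 1 of a DMSO culture, were grouped by label. FPKM values per gene are as the authors deposited them. Per the submitters' processing notes, hg38 and edgeR were used, with no version or role stated. No aligner, counter, annotation or strand setting is stated there. The table has 2 further value columns. Their names resemble those of second libraries of the same groups, but they match no sample studied here and were not used.

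Library totals were recovered as the most common value of what 1 read is worth, using GENCODE release 29 exon lengths. For genes whose reads were then not whole, the exon length used was the nearest one within 0.25 to 4 times the annotated one at which both values are whole within 1e-06 reads. This gave reads for 27801 of 28014 annotated genes above 0, 99.7% of each total, and for 45 of the 46 members. For 17323 genes the annotated length itself was used, and the rest have a searched length. The authors' annotation is therefore not known to be release 29, from which the overlaps above were taken. The reads serve only counting intervals, floors (3 reads), shares of reads and the read counts given in the text. Measured genes had a mean of at least 1 FPKM. Differences are of log2(FPKM + 1), and sizes of 0.32 and 2-fold were counted without a test. The depth behind measured members was 55 to 7979 reads with JNJ-7706621 and 70 to 6745 with DMSO.

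Named were all members, a fixed set of partners and the 8 pathway genes of at least 1 FPKM with the largest differences. Members and lists were chosen with earlier results of these data known. Calculations used Python 3.11.15, scipy 1.17.1 and pandas 2.3.3 and were tested on simulated data.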

Additional observations from a re-analysis of the deposited data

How the results depend on the processing

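No paired analysis was possible because 1 library per group was analysed, and for the same reason no replicate could be left out. Pseudocounts of 0.1 and 0.5, no filter, a filter at 5 FPKM, rescaling to TPM, centring on protein-coding genes and removal of trends with exon length or level were tried, and none of the differences past 0.32 changed sign. The count of higher members ran from 4 to 6: PSME3 lay under 0.32 in 3 of these settings and PSMA1 in 1. The share of protein-coding genes that were higher ran from 14.8% without a filter to 22.3% with a pseudocount of 0.1. The count of lower members was 2 of 44 after rescaling to TPM, against 1 of 42, with PSMA2 then past the filter on low values. On that scale 21.8% of protein-coding genes were lower. The count of higher pathway genes was 5 of 35 with either pseudocount and 5 with the length trend taken off, against 3. Higher were 22.3% of protein-coding genes with a pseudocount of 0.1, 20.7% with 0.5 and 18.5% with the length trend taken off. The count of lower pathway genes was 4 of 28 with the filter at 5 FPKM, against 7 of 35. With that filter 15.8% of protein-coding genes were lower. The difference of PSMF1 was 0.27 with the length trend taken off. Over protein-coding genes alone, the shares of summed FPKM were 0.364% with JNJ-7706621 and 0.343% with DMSO for the core, 0.253% and 0.261% for the cap, and 0.0801% and 0.0603% for the activators. Leaving out the members with a readthrough neighbour was added after the data were seen. It gave 5 higher and 1 lower of 39, or 12.8% and 2.56%, against 18.9% and 17.6% of protein-coding genes. The median was 0.07 for all and 0.12 for the core. Depth limits PSMA8 and PSMB11, at 0 or 1 read, and then PSMA2, PSMA6, PSMB10 and PSMD9, and a lack of replicates limits all.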
